A study of Mus musculus with 4 samples.

Results

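*Parp1* and 7 genes whose proteins work with it at DNA breaks were followed in mouse testis: *Parp2*, *Parp3*, *Aplf*, *Chd1l*, *Macroh2a1*, *Timeless* and *Parpbp*. They were chosen by gene symbol, for their place in break-responsive ADP-ribosylation, and all 8 were found among the 25683 genes of the table. Testis RNA came from 2 *Parp1* knockout and 2 control mouse libraries, sequenced as 150 bp paired-end reads after poly(A) selection. The knockout carries the *Parp1* tm1Zqw allele, in which a neo cassette was placed in exon 2. The allele was made in 129S mice and bred for 7 generations to C57Bl/J. The controls are labelled wild type. The age of the mice, the number of animals behind a library and the strain of each control are not given in the sources used here. The allele is a germline one, so a testis library mixes germ cells and somatic cells that all carry it. The question was how much *Parp1* mRNA is left in the knockout testis, and at what level the genes that act beside PARP1 are expressed there and in control testis.

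PARP1 binds DNA ends and nicks through its zinc fingers and then builds chains of ADP-ribose from NAD onto itself, histones and other proteins at the break. PARP2 and PARP3 are the other members of the family that DNA breaks switch on; PARP2 also makes chains, while PARP3 adds single ADP-ribose units. The chains are then read: APLF binds them with zinc fingers and brings histone chaperone and end-joining activity, CHD1L (also called ALC1) is a nucleosome remodeler that its macrodomain holds inactive until chains are bound, and a splice form of the histone variant macroH2A1 binds them with its macrodomain. TIMELESS, a component of the replication fork, binds PARP1 directly, and PARPBP (also called PARI) binds PCNA and restrains homologous recombination. In testis, DNA breaks are made as part of germ cell development, in meiotic prophase and again when elongating spermatids exchange histones for protamines, and poly(ADP-ribose) is found in the nuclei of these spermatids.

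*Parp1* lies on the plus strand of chromosome 1 (GRCm38, chr1:180568924-180601254), a span of 32331 bp with 4026 bp of exons in the deposited table. The exon that received the cassette is shown because it carries the targeted change. In a coding transcript with 23 exons, exon 2 lies at chr1:180573652-180573817 (GRCm38, plus strand, 166 bp) and encodes part of the first zinc finger. Exon 1 holds 120 coding bases, or 40 codons, so exon 2 opens on a whole codon. It holds 55 whole codons and 1 base more, the capital letter at its end, which starts the codon completed by exon 3.
Parp1 exon 2: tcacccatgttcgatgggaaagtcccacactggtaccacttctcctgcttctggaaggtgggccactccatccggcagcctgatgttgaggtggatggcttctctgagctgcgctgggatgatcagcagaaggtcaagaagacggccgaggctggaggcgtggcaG
The table counts reads per gene, not per exon, so it does not say how many reads of knockout testis fall on this exon.

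The 4 libraries held between 18103863 and 23503503 exon reads. The columns of the 2 knockout libraries share a single heading in the table, so the knockout libraries are called here by their size, the larger (21821073 reads) and the smaller (18103863 reads), and values of knockout testis stand in that order. The sample titles of both knockout libraries name a *Parg* line, whereas their genotype label names *Parp1*. The level of *Parp1* below follows the genotype label in both. *Parg*, the gene for the hydrolase that takes the chains apart, had 13.8 and 21.2 TPM in knockout testis against 15.5 and 14.9 TPM in control testis (TPM is a level scaled to library size and transcript length). Its fitted difference was 0.20 on the log2 scale (SE 0.13, adjusted p = 0.845, edgeR), and its levels in the genotypes overlapped. An mRNA level does not show whether the *Parg* protein is altered, so it does not settle the mismatch of title and label. Between the 2 knockout libraries the root mean square difference in log2 CPM over 15834 genes was 0.55, against 0.34 between the 2 controls. Of the marker genes of testis cells (4 to 8 genes per type for the germ cell stages and for Sertoli, peritubular and Leydig cells), none was at 0 reads in all libraries. The 4 markers of epididymis summed to 0 TPM in both knockout libraries, against 0.258 and 0.326 TPM in the controls. Elongating spermatid markers summed to 78096 and 44117 TPM in knockout testis, against 66391 and 68072 TPM in control testis. Leydig cell markers summed to 2515 and 8211 TPM in knockout testis, against 3058 and 3805 TPM in control testis. The 2 knockout libraries thus stood on opposite sides of the controls in both lists. Most of each Leydig sum came from 1 gene, *Insl3*, whose levels are given below with *Parp3*. In tissue RNA of this kind, fewer cells of a type and less RNA per cell cannot be told apart.

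*Parp1* was lower in knockout testis. It had 12.2 and 13.9 TPM in knockout testis, against 49.7 and 48.9 TPM in control testis, so that the mean was 13.0 ± 1.21 TPM in knockout and 49.3 ± 0.589 TPM in control testis (SD, n = 2 each). In reads, 489 and 424 fell on its exons in knockout testis and 1781 and 2035 in control testis. Among all genes of the table, 71.1% and 69.4% had a lower TPM than *Parp1* in the knockout libraries, against 86.5% in each control library. *Parp1* mRNA thus dropped in rank but remained above the level of most genes. The table includes 6408 genes with 0 exon reads in all libraries. By TPM *Parp1* was number 7414 and 7863 in the knockout libraries, where 17995 and 18034 genes had an exon read. In the controls it was number 3472 and 3473, where 18276 and 18353 genes had one. The fitted exon reads of knockout testis were 26.8% of control (95% interval 22.5% to 32.1%), a log2 fold change of -1.90 (SE 0.10, adjusted p = 0.0126, edgeR quasi-likelihood test with Benjamini-Hochberg adjustment over all genes). Of the 15834 genes tested, 15 passed (0.0947%), 2 higher and 13 lower, and *Parp1* was number 4 by p; among the 8 genes followed here it was the 1 that passed. The 4 ratios of a knockout to a control library lay between 25.6% and 28.1%. The fold change was between -1.92 and -1.89 under the 7 other tools, scalings and filters, with an adjusted p up to 0.0153. With 1 control library left out the size held but the call did not: the log2 fold change was -1.89 without control 1 (adjusted p = 0.0708) and -1.90 without control 2 (adjusted p = 0.0580). The samples are not said to come from separate animals, so these p-values measure the spread between libraries, and an exact permutation test of 2 against 2 cannot go below 0.33.

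**Figure D1:**
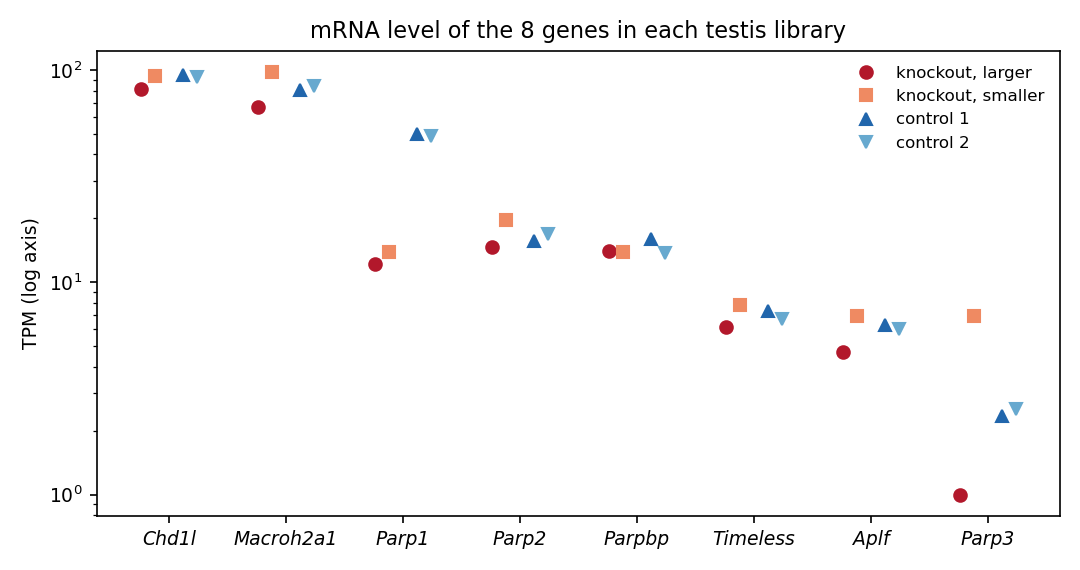
TPM (log axis) of the 8 genes in each of the 4 testis libraries, knockout left of control for each gene, ordered by their mean in control testis. *Parp1* stands at 12.2 and 13.9 TPM in knockout testis, below its 49.7 and 48.9 TPM in control testis. The *Parp3* points of the knockout libraries lie on both sides of the controls.

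The reads on *Parp1* that fell outside its exons did not drop with the exon reads. These are gene reads less exon reads and are called intron reads here; they can come from unspliced RNA or from exons that the table's gene model leaves out. Knockout testis had 45 and 68 such reads, against 55 and 79 in control testis. Scaled to library size these were 48.7 and 58.6 CPM of intron reads in knockout testis and 42.0 and 55.8 CPM in control testis, with overlapping genotypes. The fitted log2 fold change was 0.14 (95% interval -0.49 to 0.76, adjusted p = 0.979, edgeR), that is 109.9% of control with an interval of 71.1% to 169.9%. In this comparison 80 of 12351 genes passed (0.648%), and none of the 8 did by edgeR, DESeq2 or limma voom, with 0 of them at an unadjusted p under 0.05 by edgeR. The sign of the *Parp1* intron difference was not stable, since it was -0.06 without control 1.

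The proportion of intron reads on *Parp1* was higher in knockout testis. Intron reads made up 8.43% (95% Wilson interval 6.36% to 11.1%) and 13.8% (11.1% to 17.2%) of *Parp1* gene reads in knockout testis, against 3.0% (2.31% to 3.88%) and 3.74% (3.01% to 4.63%) in control testis. Neither knockout interval overlapped a control interval; these intervals cover counting error only. Over all genes with at least 100 gene reads, the median share was 3.86% and 5.53% in the knockout libraries and 5.86% and 5.68% in the controls. *Parp1* lay above 72.8% and 78.3% of these genes in the knockout libraries, against 28.4% and 35.8% of them in the controls. The shift was tested as the difference between the exon and the intron change in a single edgeR fit with library as a block. The exon change was lower by 2.05 on the log2 scale (log2 difference -2.05, SE 0.31, 95% interval -2.71 to -1.39, adjusted p = 0.00571), and 42 of 11766 genes passed (0.357%), 23 with a higher and 19 with a lower exon change. *Parp1* was number 16 of these by p and the 1 of the 8 genes that passed. Without control 1 the difference was -1.85 (adjusted p = 0.0856); it passed without control 2 and without either knockout library. Gene reads, which add both kinds, gave 29.5% of control (534 and 492 reads in knockout testis against 1836 and 2114 in control testis; log2 fold change -1.76, adjusted p = 0.0114), in a comparison where 31 of 16706 genes passed (0.186%). Without control 1 the adjusted p for gene reads was 0.0631.

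**Figure D2:**
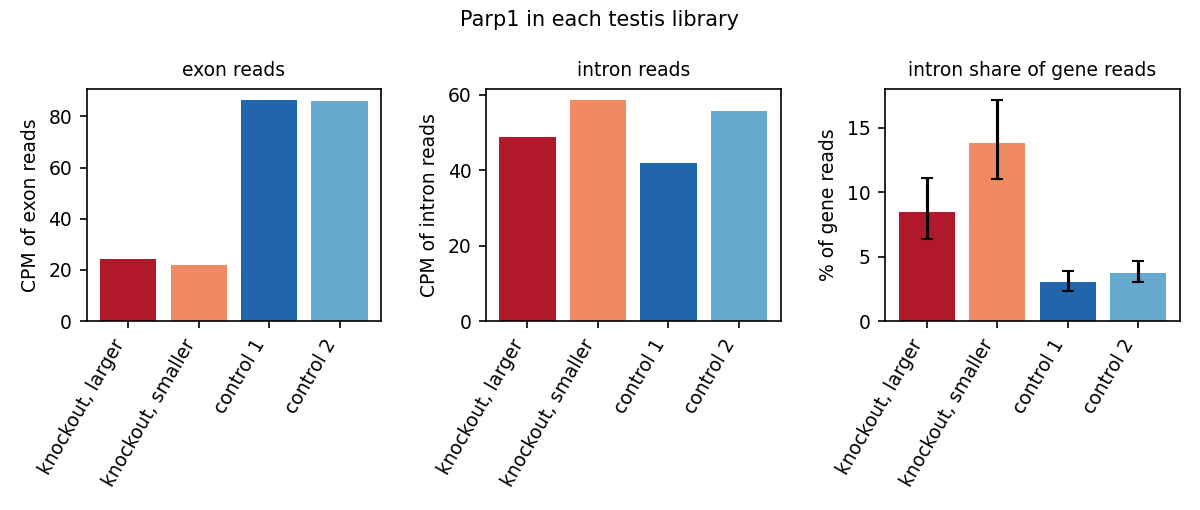
*Parp1* in each library, knockout left of control: CPM of exon reads (left), CPM of intron reads (middle), each scaled to its own kind of read, and the intron share of gene reads in percent with 95% Wilson intervals (right). Exon reads are low in both knockout libraries, intron reads overlap between the genotypes, and the intron share is 8.43% and 13.8% in knockout against 3.0% and 3.74% in control testis.

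Few reads lie outside the exons in absolute terms. *Parp1* had 121 and 105 exon reads per kilobase in knockout testis against 442 and 505 in control testis, but between 1.59 and 2.79 intron reads per kilobase in all 4 libraries. In control testis 88.0% and 86.7% of the *Parp1* exon reads crossed an exon-exon junction, against a median over genes of 61.5% and 59.1%, and 100% of them were unique to the gene. The junction and unique reads of the knockout libraries were not analysed here. The annotation used for names and positions (GENCODE M21) gives *Parp1* 8 transcripts and 5293 bp of exons, more than the 4026 bp of the table, so part of the intron reads may belong to exons of other transcripts. A microRNA gene of 67 bp, *Mir6904*, lies within *Parp1* on the same strand.

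*Parp2* and *Parp3*, the other break-responsive polymerase genes, were measured next to *Parp1*. *Parp2*, on chromosome 14, had 14.6 and 19.6 TPM in knockout testis and 15.6 and 16.8 TPM in control testis, so the genotypes overlapped. Its fitted log2 fold change was 0.08 (95% interval -0.27 to 0.44, adjusted p = 0.954, edgeR), or 106.0% of control with an interval of 82.9% to 135.6%. Its intron reads, 20 and 46 in knockout testis against 42 and 37 in control testis, overlapped as well. With *Parp1* lower and *Parp2* overlapping, their order in TPM turned. The ratio of *Parp1* to *Parp2* TPM was 0.834 and 0.710 in knockout testis, against 3.19 and 2.91 in control testis. The summed TPM of *Parp1*, *Parp2* and *Parp3* was 27.8 and 40.4 in knockout testis and 67.7 and 68.2 in control testis. *Parp1* gave 43.8% and 34.4% of this sum in knockout testis, against 73.5% and 71.7% in control testis. *Parp2* gave 52.6% and 48.5% of it in knockout testis, against 23.1% and 24.6% in control testis. *Parp2* therefore held the largest share of the summed TPM in both knockout libraries, and *Parp1* in both controls. This order depends on exon length, which for *Parp2* is 1894 bp in the table against 3628 bp over the transcripts of GENCODE M21. In exon reads *Parp1* stayed above *Parp2* in knockout testis, at 489 and 424 against 276 and 281.

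**Figure D3:**
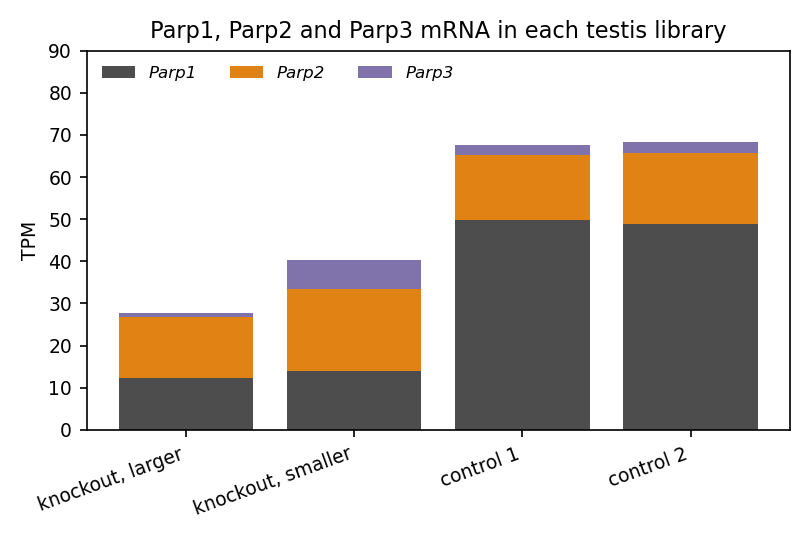
TPM of *Parp1*, *Parp2* and *Parp3*, stacked, in each testis library, with the knockout libraries at left. The summed height is 27.8 and 40.4 TPM in knockout testis against 67.7 and 68.2 TPM in control testis, with a smaller *Parp1* part and a *Parp2* part between 14.6 and 19.6 TPM.

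*Parp3* was the member that differed most between the 2 knockout libraries. It had 1.0 and 6.90 TPM in knockout testis, from 33 and 173 exon reads, against 2.34 and 2.54 TPM in control testis, from 69 and 87 exon reads. The larger knockout library was below both controls and the smaller one above both, a 6.90-fold gap between the knockout libraries and a 1.09-fold gap between the controls. The fitted log2 fold change was accordingly open in both directions, at 0.59 (95% interval -1.21 to 2.40, adjusted p = 0.932, edgeR). Leaving out the larger knockout library gave 1.36 and leaving out the smaller gave -1.11, past the threshold in opposite directions, in fits whose spread comes from the 2 controls alone and where 23.9% and 17% of all genes passed. Its intron reads split in the same way, with 4 and 26 in knockout testis against 11 in each control. The Leydig cell sum, given above, was likewise lowest in the larger knockout library and highest in the smaller one. *Insl3*, the Leydig hormone gene that is the most abundant of these 8 markers, had 1947 and 7301 TPM in knockout testis against 2305 and 2865 TPM in control testis. It made up most of each sum, so this split is mainly that of *Insl3* and is not shown for the other Leydig markers. Sertoli cell markers summed to 1146 and 1842 TPM in knockout testis against 1450 and 1457 TPM in control testis, and macrophage markers to 20.1 and 41.4 TPM in knockout testis against 23.5 and 35.6 TPM in control testis. Of the germ cell lists, those of spermatogonia and spermatocytes had this order. Spermatogonia markers were at 278 and 359 TPM in knockout testis against 344 and 332 TPM in control testis. Spermatocyte markers were at 901 and 1112 TPM in knockout testis against 1087 and 959 TPM in control testis. Elongating spermatid markers, given above, had the opposite order. Round spermatid markers did not split around the controls, at 2860 and 2372 TPM in knockout testis against 2460 and 2246 TPM in control testis. Nor did peritubular cell markers, at 34.7 and 64.7 TPM in knockout testis against 44.3 and 68.8 TPM in control testis. Lymphocyte markers did not either, at 1.30 and 1.63 TPM in knockout testis against 1.83 and 2.10 TPM in control testis. These sums are TPM without TMM, the scaling between libraries used for CPM, and each weighs its most abundant genes most. *Parp2* had 14.6 and 19.6 TPM in the knockout libraries, but 13.6 and 14.6 CPM of exon reads with TMM. Gaps of that size between the knockout libraries, as in the spermatogonia and spermatocyte lists, thus cannot be told from a difference of scaling. The part of these cell types in the *Parp3* difference was not tested. The genes with the pattern nearest to *Parp3* over the 4 libraries, by the root mean square difference of centred log2 CPM among 15834 genes, were *Galnt9* (0.12), *Lcp1* (0.12), which encodes the actin-bundling protein of leukocytes, and *Tgm2* (0.21), which encodes a transglutaminase. *Parp3* shares 987 bp of chromosome 9 with *Rrp9* on the opposite strand, and the counting is not said to use strand, so reads there cannot be told apart. *Rrp9* had 796 and 844 exon reads in knockout testis against 691 and 777 in control testis, with no such gap between the knockout libraries.

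*Aplf*, the first of the chain readers, had low exon levels: 4.67 and 6.90 TPM in knockout testis and 6.32 and 6.02 TPM in control testis, which overlapped (log2 fold change -0.09, 95% interval -0.54 to 0.35, adjusted p = 0.962, edgeR). Its intron reads numbered 380 and 140 in knockout testis, against 267 and 317 in control testis. They made up 71.2% (95% Wilson interval 67.2% to 74.8%) and 44.7% (39.3% to 50.3%) of *Aplf* gene reads in knockout testis, against 58.9% and 60.6% in control testis. The knockout libraries thus lay on either side of the controls, and in the order opposite to that of *Parp3*. The fitted intron change was 0.31 (95% interval -0.57 to 1.19, adjusted p = 0.970, edgeR). Leaving out the larger knockout library gave -0.83 and leaving out the smaller gave 0.95, past the threshold in opposite directions where 5.91% and 10.4% of all genes passed. Its gene reads changed by -0.43 without the larger knockout library and by 0.29 without the smaller one. The exon change minus the intron change was -0.21 with all 4 libraries (95% interval -1.18 to 0.76, adjusted p = 0.983, edgeR). It was 0.87 without the larger knockout library and -1.19 without the smaller one. Elongating spermatid markers had the same order over the knockout libraries, with 78096 TPM in the larger one and 44117 TPM in the smaller one, around 66391 and 68072 TPM in the controls; their part in the *Aplf* reads was not tested. *Aplf*, on chromosome 6, overlaps an antisense gene, *Gm44097*, over 6070 bp, and its exons span 3308 bp in the table against 5925 bp over the transcripts of GENCODE M21.

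*Chd1l*, the remodeler gene, was the most abundant of the 8 by mean in both genotypes, with 81.6 and 93.8 TPM in knockout testis and 94.2 and 93.1 TPM in control testis. These overlapped in TPM. In exon reads scaled to library size, both knockout libraries lay below both controls, at 120.7 and 111.5 CPM against 122.4 and 122.3 CPM. The fitted log2 fold change was -0.08 (95% interval -0.32 to 0.17, adjusted p = 0.936, edgeR), or 94.9% of control with an interval of 80.1% to 112.4%. Intron reads were a small share of its gene reads, at 1.89% and 3.35% in knockout testis and 3.45% and 2.69% in control testis.

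*Macroh2a1*, listed as *H2afy* in GENCODE M21, was the next in level. It had 67 and 97.9 TPM in knockout testis, one library below and the other above the controls, which had 80.6 and 84.3 TPM. The fitted log2 fold change was 0.00 (95% interval -0.29 to 0.29, adjusted p = 0.9997, edgeR). Its intron reads, 71 and 185 in knockout testis against 163 and 196 in control testis, were lowest in the larger knockout library, where they made up 4.74% of gene reads (95% Wilson interval 3.78% to 5.94%), against 10.5% in the other knockout library and 9.62% and 9.52% in the controls. Without the smaller knockout library the *Macroh2a1* intron change was -0.76 and passed the threshold, as 10.4% of all genes did; with all 4 libraries it was -0.14 (95% interval -0.82 to 0.53, adjusted p = 0.981, edgeR). The part of the cell types above in these *Macroh2a1* differences was not tested. *Macroh2a1* exons span 2137 bp in the table against 6809 bp over the transcripts of GENCODE M21. An antisense gene, *Gm47071*, overlaps *Macroh2a1* over 11231 bp. Part of the *Macroh2a1* intron reads may thus belong to exons of other transcripts or to that gene. The splice form that binds ADP-ribose chains cannot be told from the other one in reads per gene.

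**Figure D4:**
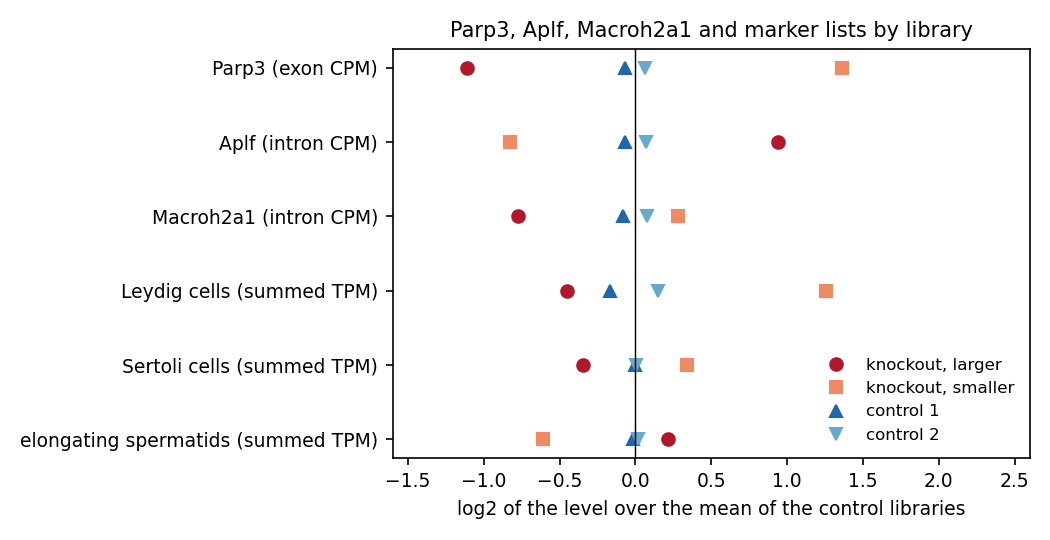
Level in each library as log2 over the mean of the control libraries, for *Parp3* exon reads, *Aplf* and *Macroh2a1* intron reads (CPM) and the summed TPM of Leydig, Sertoli and elongating spermatid markers. The CPM rows carry TMM scaling and the TPM rows do not, so sizes are not comparable between these kinds of row. The larger knockout library and the smaller one lie on opposite sides of the controls in every row. *Aplf* intron reads and elongating spermatid markers are high in the larger one, the other rows in the smaller one. The Leydig row mainly follows *Insl3*, which makes up most of each Leydig sum.

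*Timeless* and *Parpbp*, whose proteins bind PARP1 or PCNA, also overlapped between the genotypes. *Timeless*, on chromosome 10, had 6.13 and 7.83 TPM in knockout testis and 7.28 and 6.71 TPM in control testis (log2 fold change 0.01, 95% interval -0.33 to 0.35, adjusted p = 0.998, edgeR). Its few intron reads, 10 and 7 in knockout testis against 11 and 19 in control testis, gave an interval of -1.65 to 0.84 that allows changes either way. *Parpbp*, also on chromosome 10, had 14.1 and 13.8 TPM in knockout testis and 16.0 and 13.7 TPM in control testis (log2 fold change -0.05, 95% interval -0.46 to 0.35, adjusted p = 0.979, edgeR). It was the member with the most reads outside exons: 978 and 975 in knockout testis against 946 and 1099 in control testis, between 64.9% and 72.1% of its gene reads. In control testis, however, only 20% and 18% of those intron reads were unique to *Parpbp*, whereas 99.4% of its exon reads were unique, so its intron level is uncertain. The *Parpbp* intron change was 0.34 with all 4 libraries (95% interval -0.34 to 1.02, adjusted p = 0.940, edgeR) and passed at 0.51 without the smaller knockout library, where 10.4% of all genes passed. The exon reads of the 7 other genes were 100% unique in both controls.

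**Figure D5:**
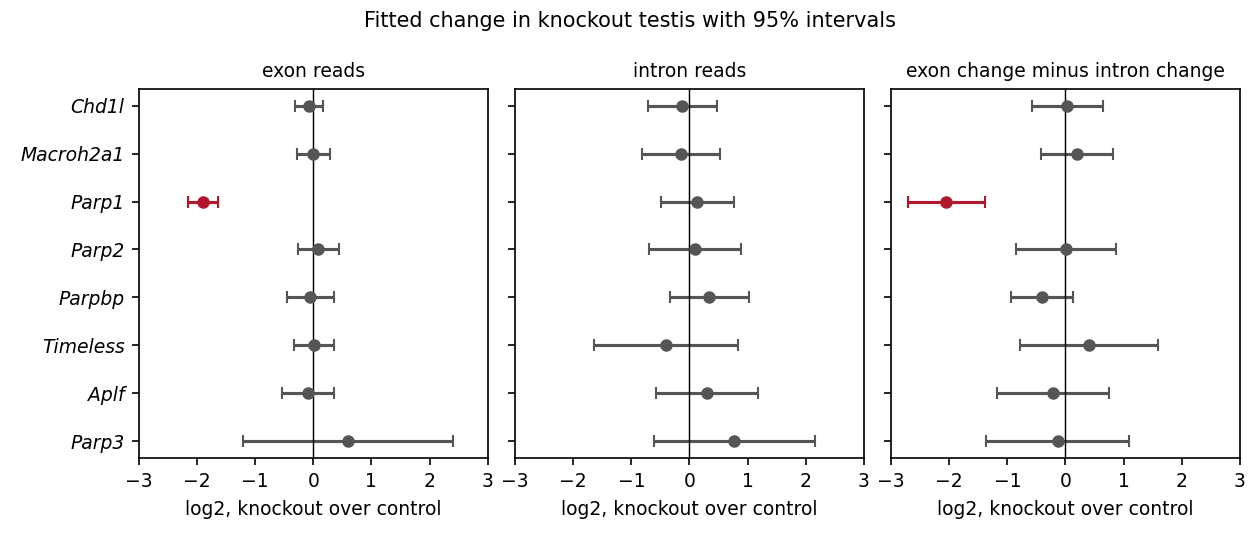
Fitted log2 change, knockout over control, of the 8 genes in exon reads (left), in intron reads (middle) and as the exon change minus the intron change (right), with 95% intervals from edgeR. Red marks an adjusted p below 0.05: *Parp1* at -1.90 in exon reads and at -2.05 for the difference; every other interval includes 0, and that of *Parp3* in exon reads is the widest, from -1.21 to 2.40.

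Ordered by mean TPM in knockout testis, the genes ran *Chd1l* (87.7), *Macroh2a1* (82.4), *Parp2* (17.1), *Parpbp* (14.0), *Parp1* (13.0), *Timeless* (6.98), *Aplf* (5.79) and *Parp3* (3.95). The ranges of *Chd1l* and *Macroh2a1*, of *Parpbp* and *Parp1*, of *Timeless* and *Aplf*, and of *Aplf* and *Parp3* overlapped there. In control testis the order was *Chd1l* (93.7), *Macroh2a1* (82.4), *Parp1* (49.3), *Parp2* (16.2), *Parpbp* (14.8), *Timeless* (7.0), *Aplf* (6.17) and *Parp3* (2.44), and only *Parp2* and *Parpbp* overlapped. *Parp1* stood in the range of *Parpbp* in knockout testis, against a place between *Macroh2a1* and *Parp2* in control testis. The other 7 kept their order by mean.

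The genes nearest to *Parp1* in pattern over the 4 libraries, by the same measure as for *Parp3*, were *Ston1* (0.06), *Col25a1* (0.09) and *Olfml3* (0.09). *Ston1*, which encodes an endocytic adaptor, had 4.45 and 5.06 TPM in knockout testis against 17.0 and 16.5 TPM in control testis, and passed the test with a log2 fold change of -1.79 (adjusted p = 0.0233, edgeR). *Col25a1* and *Olfml3* did not pass (adjusted p = 0.241 and 0.102, edgeR) and had at most 160 exon reads in a library. The likeness is a description over 4 libraries.

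Beyond the 8 genes, 29 genes that act with them were measured: the factor *Hpf1* that completes the PARP1 active site, the hydrolases and readers that remove or bind ADP-ribose (*Parg*, *Adprhl2*, *Macrod1*, *Macrod2*, *Oard1*, *Rnf146*, *Chfr*), single-strand break repair (among them *Xrcc1*, *Lig3*, *Polb* and *Tdp1*), end joining (*Xrcc4*, *Lig4*, *Xrcc5*, *Xrcc6*, *Nhej1*), the partners of TIMELESS at the fork (*Tipin*, *Clspn*, *Wdhd1*), those of PARPBP (*Pcna*, *Rad18*) and chromatin factors (*Macroh2a2*, *Smarca5*, *Supt16*, *Ssrp1*). All 29 could be tested and 0 passed in exon reads by edgeR, with 4 at an unadjusted p under 0.05, where 0.0947% of all genes passed and 7.79% had such a p. In exon reads 14 of them were above 0 and 15 below. The median log2 fold change was -0.01, against 0.01 over all genes. *Pcna*, the sliding clamp gene, had the highest level, 124 and 146 TPM in knockout testis against 167 and 165 TPM in control testis; both knockout libraries were below both controls, but the difference did not pass (log2 fold change -0.28, 95% interval -0.51 to -0.04, adjusted p = 0.535, edgeR). *Tdp1*, which removes topoisomerase from DNA ends, had 90.7 and 114 TPM in knockout testis and 101 and 96.7 TPM in control testis, and *Lig3*, the ligase of single-strand break repair, had 91.4 and 103 TPM in knockout testis and 104 and 101 TPM in control testis. The other 3 genes with an unadjusted p under 0.05 were the ubiquitin ligase gene *Chfr* (log2 fold change 0.42), the end-joining gene *Xrcc4* (0.31) and the histone chaperone gene *Supt16* (0.26), each higher in both knockout libraries and each with an adjusted p between 0.463 and 0.570 (edgeR). In gene reads, intron reads and the exon-against-intron comparison 0 of the 29 passed as well, with 4, 2 and 4 at an unadjusted p under 0.05; DESeq2 and limma voom also called 0 in each of these comparisons, and edgeR's likelihood ratio test called 1, in the exon-against-intron comparison. Without the larger knockout library 12 of the 29 passed in exon reads, and without the smaller one 6 did; of all genes 3890 of 16244 (23.9%) and 2752 of 16215 (17%) passed in these fits, and whether the partners differ from other genes in this was not tested.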

How the data were processed

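Poly(A) RNA of 2 *Parp1* knockout and 2 control testis libraries was sequenced by the authors, and reads were trimmed and aligned to GRCm38 (mm10) in CLC Genomics Workbench 12.0 with standard parameters. The deposited table has 77 columns and 25683 genes. It gives whole-number counts of exon and gene reads, TPM and RPKM made by the authors, and the exon length of each gene (another unit, bp). Of 67 columns per library 44 were not used, and 6 columns of the authors' own comparison, with fold changes and p-values, were not used. Because the knockout headings are duplicated, only total exon and gene reads were taken for knockout libraries. Intron reads are gene less exon reads, and TPM were recomputed from exon reads and exon length (largest difference from the deposited TPM of the controls 1.09e-10). Unique and junction reads and RPKM were used for controls only.

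The counts were fitted with edgeR 4.0.16 under R 4.3.3 (filterByExpr, minimum 10; TMM; quasi-likelihood test; Benjamini-Hochberg adjustment over all genes tested, threshold 0.05). A standard error was obtained by dividing the log2 fold change by the root of its F statistic, and the 95% interval used that test's degrees of freedom. Exon and intron reads were compared with library as a block and their interaction with genotype. Alternatives used DESeq2 1.42.0, edgeR's likelihood ratio test, limma voom 3.58.1, RLE scaling, no TMM, no filter, 10 reads in every library, and each library left out. Log2 CPM for patterns had a prior count of 2. The procedure was tested on simulated data. Exon 2, positions and overlaps were read from the annotation and transcript sequences of GENCODE M21 (GRCm38) with Python 3.11.15. The figures were drawn with matplotlib 3.10.9. At 18103863 to 23503503 exon reads per library the common dispersion was 0.0235. Named were all 8 genes, the 3 partners with the highest mean TPM, *Parg*, partners with an unadjusted p under 0.05, and the 3 genes nearest in pattern to *Parp1* and *Parp3*. The genes and lists were chosen with earlier results of these data known. A single gene of the partner list is not reported here and was left out of its counts.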

Additional observations from a re-analysis of the deposited data

How the results depend on the processing

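*Parp1* passed in exon reads, gene reads and exon against intron reads under limma voom, DESeq2, RLE scaling, edgeR's likelihood ratio test, no TMM, no filter and 10 reads in every library; the 7 other members and the *Parp1* intron reads passed under none of these. The share of control *Parp1* mRNA, from exon reads, was 25.7% to 28.0% with 1 library left out. Gene reads, which also hold intron reads, gave 29.5% of control. Counts of all genes called varied more. In exon reads they were 193 with DESeq2, 374 with the likelihood ratio test, 41 without TMM and 52 without a filter. In gene reads they were 250 with DESeq2, 440 with the likelihood ratio test, 16 with voom, 56 without TMM, 71 without a filter and 12 with 10 reads in every library. In intron reads they were 167 with the likelihood ratio test, 167 without a filter and 38 with 10 reads in every library. For exon against intron reads they were 125 with the likelihood ratio test, 107 without a filter and 21 with 10 reads in every library. Differences near 0 changed sign: *Macroh2a1* exon reads at -0.0041 (voom), -0.013 (no TMM) and -0.0039 (10 reads in every library), *Timeless* exon reads at -0.012 (no TMM), *Timeless* gene reads at -0.029 (no TMM) and -0.0030 (10 reads in every library), and *Parp2* exon against intron reads at -0.00094 (voom). The cause was not tested.

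With 1 library left out, which leaves a genotype with a lone library taken to vary like the other genotype, genes called ranged from 8 to 3890 in exon reads, 7 to 3624 in gene reads, 42 to 1362 in intron reads and 27 to 374 for exon against intron reads, and members called from 0 to 2, 0 to 3, 0 to 3 and 0 to 2. The high counts came without a knockout library, where the spread is that of the controls alone. *Parp1* ranged from -1.96 to -1.83 in exon reads, -1.79 to -1.73 in gene reads, -0.057 to 0.36 in intron reads and -2.26 to -1.85 for exon against intron reads. In exon reads *Parp3* ranged from -1.11 to 1.36, *Aplf* from -0.22 to 0.027, *Macroh2a1* from -0.12 to 0.11, *Timeless* from -0.045 to 0.059 and *Parpbp* from -0.23 to 0.11. In gene reads *Parp2* ranged from -0.019 to 0.18, *Parp3* from -1.10 to 1.38, *Aplf* from -0.43 to 0.29, *Macroh2a1* from -0.16 to 0.13 and *Timeless* from -0.028 to 0.032. In intron reads *Parp2* ranged from -0.41 to 0.44, *Parp3* from -0.87 to 1.45, *Aplf* from -0.83 to 0.95, *Chd1l* from -0.29 to 0.023 and *Macroh2a1* from -0.76 to 0.27. For exon against intron reads *Parp2* ranged from -0.30 to 0.42, *Aplf* from -1.19 to 0.87, *Chd1l* from -0.15 to 0.25, *Macroh2a1* from -0.15 to 0.63 and *Timeless* from -0.018 to 0.91. The fits of unique and junction reads were not run, since these columns of the knockout libraries were not used. No paired analysis was possible because the columns of the 2 knockout libraries share a single heading and so have no replicate number.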
